A study of Mus musculus with 32 samples.

Results

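The comparison described here is that of MCAD-KO with WT liver in the low-fat fasted condition, which holds 8 of the 32 mice of the series, 4 of each genotype, chosen by their labels. All 8 were males on a C57BL/6J background, ate a low-fat diet for 6 weeks and were fasted for 16 h. The KO mice lack the medium-chain acyl-CoA dehydrogenase (MCAD, gene Acadm) in all tissues and were littermates of the WT mice. The labelled ages, which carry no unit, were 14, 14, 10 and 10.5 for KO replicates 1 to 4 and 12, 12, 7.5 and 11 for WT replicates 1 to 4. KO replicates 1 to 3 and WT replicates 1 and 2 are labelled as lane 7, and KO replicate 4 and WT replicates 3 and 4 as lane 8. The libraries hold the 3′ ends of polyadenylated transcripts of whole liver, in which fewer cells of a type and less RNA per cell cannot be told apart. Each mouse had 2031053 to 4154949 counts. Levels are given as CPM, which are counts relative to the scaled total of each library, and log2 differences are KO minus WT. A floor of 3 counts for a gene with no reads stood for 0.722 to 1.48 CPM.

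During a fast the liver takes up fatty acids from adipose tissue, brings them into mitochondria through the carnitine shuttle and shortens them by β-oxidation, which yields acetyl-CoA for ketone bodies and energy for glucose synthesis. Each round opens with an acyl-CoA dehydrogenase, and MCAD handles chains of medium length. Fatty acids also activate the nuclear receptor PPARα, which raises the transcription of genes for fatty acid breakdown in mitochondria, in peroxisomes and, by ω-oxidation, in the endoplasmic reticulum.

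PPARα binds a direct repeat with a spacing of 1 base (DR1). Its letters are shown at Fabp1, which encodes the liver fatty acid binding protein, because its window was among the few of the listed genes with a match. The 100 bases before the start are printed 5′ to 3′ from RefSeq (build GRCm38.p6, plus strand, chr6:71199779-71199878), with the repeat, here on the reverse strand, in capitals.
Fabp1: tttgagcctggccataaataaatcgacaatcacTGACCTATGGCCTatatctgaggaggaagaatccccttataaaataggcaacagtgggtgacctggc
The motif searched was AGGNCA followed, after 1 base, by a second AGGNCA, on both strands, in windows from 250 bases before to 50 bases after a start. It was found in 125 of 32851 windows (0.381%), and in 2 of the 282 windows of the listed genes, those of Fabp1 and Gdf15. A match describes the letters and is not evidence of binding. Fabp1 stood at 2757, 4254, 1534 and 3134 CPM in KO replicates 1 to 4 and at 1677, 2439, 4303 and 1944 CPM in WT replicates 1 to 4. The groups overlapped over most of their range. The log2 difference was 0.17 (SE 0.33, 95% interval 0.691 to 1.84-fold).

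Acadm (GRCm38, chromosome 3, 153922357 to 153944632, minus strand), the targeted gene, had 34.4, 17, 15.3 and 28.5 CPM in the 4 KO mice and 635, 578, 705 and 540 CPM in the 4 WT mice. Every KO mouse lay far below every WT mouse. The KO level was 0.0387 of the WT level (log2 difference -4.69, SE 0.25, adjusted p = 3.89e-07, edgeR quasi-likelihood test with Benjamini-Hochberg adjustment). The labels do not give the position of the KO allele, and the reads cover the 3′ end of the transcript.

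KO replicate 1 stood apart from the other mice. Its log2 CPM values correlated with those of the other 7 mice at 0.874 to 0.889 (Pearson's r across genes, which are not independent replicates), and pairs among the other 7 reached 0.928 to 0.960. Of 5008 genes with a median of at least 20 CPM in the other mice, 202 were more than 4 times below that median in KO replicate 1, and 3 to 9 such genes were found in each other mouse. Crtc2, a coactivator of the glucagon response, had 1, 110, 78 and 106 counts in KO and 115, 77, 66 and 218 counts in WT. Sdhd, a subunit of succinate dehydrogenase, had 14, 901, 308 and 449 counts in KO and 508, 451, 379 and 760 counts in WT. In both genes KO replicate 1 alone was low. In all, 14 genes, among them Crtc2, Numb and Adam9, had at most 3 counts in this library and at least 20 in each of the 31 other mice of the series, and no other low-fat fasted mouse had such a gene. KO replicate 1 also had the highest sums of erythroid genes (1196 CPM, against 500.1 to 711 in the others), macrophage genes (776 against 347 to 620) and endothelial genes (494 against 327 to 439). The cause was not tested, and results that rest on this library are also given without it.

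KO replicates 3 and 4 held adrenal transcripts. The 8 cortex genes Star, Cyp11a1, Cyp11b1, Cyp21a1, Hsd3b1, Akr1b7, Mc2r and Nr5a1, taken from a marker list after their values were seen, summed to 275 CPM in KO replicate 3 and 118 CPM in KO replicate 4. In the other 6 mice the sum was 0 to 1.22 CPM. The whole list of 11 measured cortex genes, which includes Scarb1, Fdx1 and Mrap, at similar levels in both genotypes, ranged from 273 to 682 CPM in KO and from 277 to 371 CPM in WT. Akr1b7, an aldo-keto reductase of steroid-producing cells, had 0, 0, 230 and 130 counts in KO and 2, 0, 3 and 3 counts in WT. Star, which brings cholesterol into mitochondria for steroid synthesis, had 0, 1, 73 and 52 counts in KO and 1, 0, 0 and 0 counts in WT. Chga, of the chromaffin granules of the adrenal medulla, had 0, 0, 21 and 22 counts in KO and 0, 0, 0 and 0 counts in WT. All 3 were high in KO replicates 3 and 4 only. The whole list of 8 medulla genes summed to 233, 132, 223 and 211 CPM in KO and to 131 to 168.5 CPM in WT. KO replicate 1 had the highest sum. That list includes Ddc, with means, scaled over all mice, of 183 CPM in KO and 154 CPM in WT. KO replicates 3 and 4 also carried the most adipose transcripts, with 149 and 200 CPM over 10 genes against 20.9 to 88.6 CPM in the others. Ucp1, the brown fat uncoupler, had 0, 0, 14 and 30 counts in KO and 0, 0, 0 and 8 counts in WT. Acinar pancreas genes summed to 60.8 CPM in KO replicate 3 and to at most 22.9 CPM in the others. Hepatocyte genes summed to 54816 to 69958 CPM in KO and 57956 to 68459 CPM in WT.

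**Figure D1:**
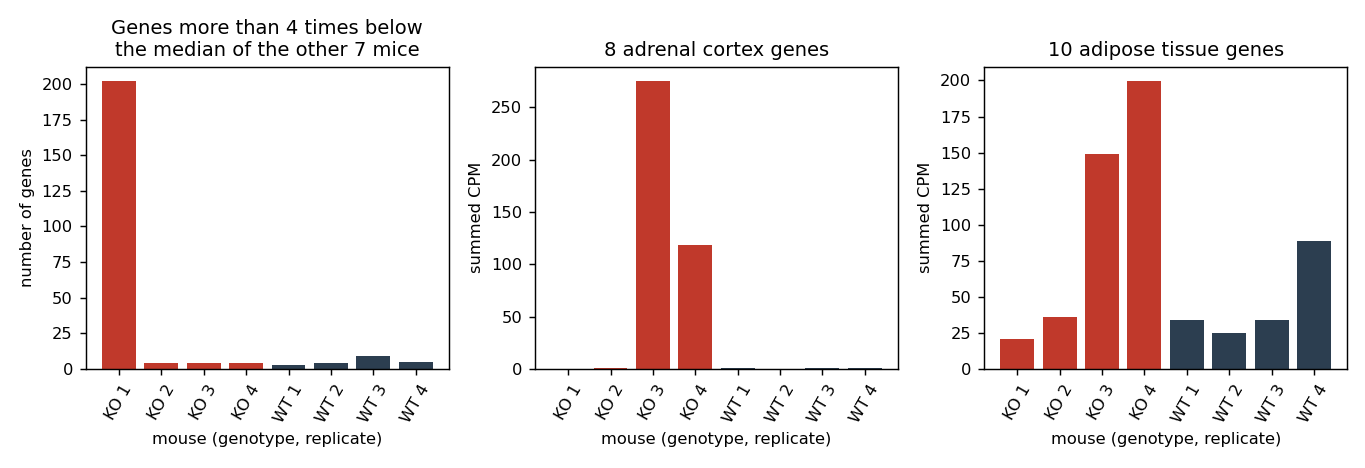
Library checks by mouse for the 4 KO and 4 WT mice. Left: number of genes more than 4 times below the median of the other 7 mice. Middle: summed CPM of 8 adrenal cortex genes. Right: summed CPM of 10 adipose genes. KO replicate 1 has 202 low genes, and KO replicates 3 and 4 hold the adrenal transcripts, at 275 and 118 CPM.

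The first question was which genes differed between the genotypes. Of 9639 genes tested, 1 passed an adjusted p below 0.05 by edgeR, Acadm (0.0104%), and 0 were higher in KO (0.0%). At an unadjusted p below 0.05, 113 genes were higher in KO (1.17%) and 107 lower (1.11%), together 220 (2.28%), and 18 genes (0.187%) were below 0.01. With no difference in any of the 9639 genes, 482 would be expected below 0.05 and 96.4 below 0.01. Both counts lay below that. In a model of all 8 groups, with 31 mice, the same comparison gave 641 of 11631 genes below 0.05 and 143 below 0.01. The counts depended on the fit, so they cannot tell whether single genes other than Acadm differ. No other gene passed the adjustment in either fit. Without KO replicate 1 Acadm was again the 1 adjusted call (0.01%), and 283 of 9991 genes (2.83%) had an unadjusted p below 0.05, among them 111 of the 220. Without KO replicates 3 and 4 there were 512 of 10282 genes (4.98%), among them 109 of the 220. Within lane 7 (3 KO and 2 WT mice) 205 of 9975 genes had an unadjusted p below 0.05. Lane 8 holds 1 KO mouse, replicate 4 with adrenal transcripts, so a count of genes there cannot measure the spread between KO mice.

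Below Acadm, the smallest p belonged to Eif4ebp2 (chromosome 10, 61428491 to 61452661), which encodes 4E-BP2, a repressor of cap-dependent translation that mTORC1 switches off. It had 19.7, 32.3, 38.5 and 38.9 CPM in KO replicates 1 to 4 and 52.5, 73.5, 77.3 and 65.8 CPM in WT replicates 1 to 4. All KO mice lay below all WT mice, as was the case for 103 of the 9639 genes (1.07%). The KO level was 0.481 of WT (95% interval 0.337 to 0.688, log2 difference -1.06, SE 0.24). This did not pass the correction (adjusted p = 1.0 by edgeR, range over the alternatives 0.115 to 1.0). The exact permutation test gave p = 0.0286, the smallest that 4 mice against 4 allow. The log2 difference was -0.89 without KO replicate 1, -1.36 without replicates 3 and 4, -1.05 within lane 7 and -0.89 within lane 8.

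The other genes with the smallest p and lower levels in KO were Nrros, which encodes a regulator of reactive oxygen species and TGF-β in myeloid cells, the tetraspanin gene Tspan14, the cytokine signalling brake Socs6, the endosomal GTPase gene Rab5b, the junction gene Jup (plakoglobin), the transporter gene Flvcr2, the kinase gene Ripk2 and Caskin2. Their log2 differences ran from -0.80 (Socs6, SE 0.25) to -1.51 (Nrros, SE 0.44). Every KO mouse was below every WT mouse for these genes except for Rab5b, with 10.2, 10.4, 17.8 and 15.9 CPM in KO and 28.8, 38.6, 17.1 and 23.2 CPM in WT, where KO replicate 3 exceeded WT replicate 3. Each had an adjusted p of 1.0 by edgeR.

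At the other end, D17H6S53E had 12.7, 10.7, 13.8 and 7.04 CPM in KO and 3.13, 5.36, 3.66 and 4.26 CPM in WT (log2 difference 1.41, SE 0.39, adjusted p = 1.0 by edgeR). All 4 KO mice were above all WT mice, as for 100 of 9639 genes (1.04%). Acta2, smooth muscle actin and a marker of activated stellate cells, had 19.7, 5.58, 9.39 and 10.7 CPM in KO and 3.47, 6.12, 2.03 and 2.37 CPM in WT (log2 difference 1.69, SE 0.49). KO replicate 2 lay below WT replicate 2. Of the 9 tested genes of the stellate cell and fibroblast list, Acta2 was the 1 with p below 0.05, against 2.28% of all genes. The median log2 difference of the list was -0.13. The remaining genes were Gm6039, Hps4, Stk19, Rps13-ps2, Gm8258, Pdap1, Csk and Rpl31-ps8, with log2 differences of 0.62 (Csk) to 1.78 (Gm6039). By their names Rps13-ps2 and Rpl31-ps8 are pseudogene copies of ribosomal protein genes, so the assignment of their reads is uncertain.

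The next question was how large a change the data leave possible for genes that fasting induces. These genes were taken from other mice, so that the genotypes compared here played no part in their choice. In WT mice on the high-fat diet, 19 of 9926 genes (0.191%) were at least 2-fold higher after fasting than in the fed state at an adjusted p below 0.05 by edgeR. Fasting had raised them 2.05 to 4.43-fold, with a median of 2.66-fold, and all 19 were tested in the low-fat fasted mice. There, 15 of the 19 were higher in KO, where 50.6% of all genes were, with a median log2 difference of 0.16. At an unadjusted p below 0.05 there was 1 of the 19, against 2.28% of all genes. For each gene the bound is the end of the 95% interval farthest from no change, in either direction. Larger changes are excluded at this confidence for 1 gene at a time, with no adjustment for the number of genes. The median bound was 1.85-fold, and for 12 of the 19 (63.2%) the whole interval lay within 2-fold. Over all 9639 genes the median bound was 1.86-fold and 59.3% lay within 2-fold. For 17 of the 19 the bound was smaller than the rise on fasting in the WT high-fat mice, the exceptions being Pim3 and Serpinb1a. The genes were kept at a rise of at least 2-fold, so this count depends in part on that choice. The rise on the low-fat diet can differ. In WT low-fat mice, with CPM scaled over all mice, Ifit1 had means of 14.8 CPM fed and 15.4 CPM fasted. Por had 40.9 and 323 CPM. Without KO replicate 1 the median bound was 1.74-fold and 13 of 19 lay within 2-fold, against 61.4% of all genes.

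The bounds differed with the level of the genes. In the 2410 genes with the lowest mean CPM the median bound was 2.59-fold and 10.7% lay within 2-fold, and in the 2410 genes with the highest it was 1.56-fold and 89.2%.

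Angptl4, a PPARα target that inhibits lipoprotein lipase, had 234, 244, 223 and 265 CPM in KO and 228, 198, 145 and 176 CPM in WT. All KO mice but replicate 3 were above all WT mice, and the interval was 0.97 to 1.73 times WT. Without KO replicate 1 it was 1.01 to 1.69. Plin4, which coats lipid droplets and had the largest rise on fasting among the 19 genes, had 32.8, 21.4, 32.6 and 26.7 CPM in KO and 25.7, 18, 16.3 and 63.7 CPM in WT. WT replicate 4 was the highest and the interval was 0.509 to 1.59 times WT. Acsl1, the main long-chain acyl-CoA synthetase of liver, allowed 0.837 to 1.49 times WT, and Slc22a5, the carnitine transporter, 0.891 to 1.85. The ω-hydroxylase gene Cyp4a31 allowed 0.696 to 1.47, the P450 reductase gene Por 0.688 to 1.54 and the retinol saturase gene Retsat 0.835 to 1.98. Lgals4 (0.676 to 1.5), Inca1 (0.625 to 1.36) and Elmod3 (0.841 to 1.79) also stayed within 2-fold. Wider intervals remained for Pcsk4 (0.49 to 2.04), the clock gene Per1 (0.484 to 2.29), the interferon target Ifit1 (0.375 to 1.47), Rhbdd2 (0.935 to 2.01) and Serpinb1a (0.891 to 4.47).

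The gene that passed an unadjusted p of 0.05 was the kinase gene Pim3, named for that reason after its values were seen. It had 194, 93.7, 491 and 567 CPM in KO replicates 1 to 4 and 110, 98.3, 154 and 196 CPM in WT replicates 1 to 4. The high values were those of KO replicates 3 and 4, the mice with adrenal transcripts. The log2 difference was 1.26 (SE 0.49, exact permutation p = 0.257, and unadjusted p = 0.0274 and adjusted p = 1.0 by edgeR), and without those 2 mice it was 0.04.

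A second set, from WT and KO high-fat mice together, held 42 of 11026 genes (0.381%), of which 40 were tested here. Their median bound was 2.09-fold and 17 of the 40 (42.5%) lay within 2-fold, against 59.3% of all genes. For 32 of the 40 the bound was smaller than the rise on fasting in the high-fat mice by which they were chosen. At an unadjusted p below 0.05, 3 were higher in KO (Gm15441, Acot3 and Pim3) and 1 lower (Flvcr2), against 1.17% and 1.11% of all genes. Gm15441 had the largest rise on fasting of the 40 genes, 53.1-fold. It allowed 1.26 to 6.04 times WT (unadjusted p = 0.0171 by edgeR), the widest bound of this set. The metallothionein genes Mt1 and Mt2, named after their values were seen, had risen 11.9-fold and 15.2-fold on fasting and allowed 0.362 to 1.72 and 0.221 to 1.69 times WT. The ω-hydroxylase genes Cyp4a10 and Cyp4a14 had risen 8.71-fold and 7.45-fold. Cyp4a10 allowed 0.704 to 1.63 times WT. Cyp4a14 had 38745, 14327, 11921 and 27819 CPM in KO and 19395, 20514, 19808 and 14056 CPM in WT. KO replicate 1 was the highest, and the interval of 0.782 to 2.03 times WT became 0.68 to 1.4 without it.

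Of 10 textbook fasting genes, 5 had intervals within 2-fold, against 59.3% of all genes, and 1 had an unadjusted p below 0.05, against 2.28%. Without KO replicate 1, 7 of the 10 lay within 2-fold, against 61.4% of all genes. In that fit 3 had an unadjusted p below 0.05 by edgeR, all higher in KO, against 2.83% of all genes in either direction. Cpt1a, the entry point of the carnitine shuttle, had 455, 731, 396 and 619 CPM in KO and 555, 653, 516 and 488 CPM in WT. The WT range lay inside the KO range, and the KO level was 0.996 of WT (95% interval 0.715 to 1.39). Pck1, which commits carbon to glucose synthesis, had 2037, 8200, 11584 and 12498 CPM in KO and 13912, 8667, 5617 and 8957 CPM in WT. G6pc, which releases the glucose, had 141, 637, 599 and 723 CPM in KO and 514, 597, 416 and 465 CPM in WT. KO replicate 1 was the lowest mouse for both genes. The intervals were 0.456 to 1.87 times WT for Pck1 and 0.601 to 1.85 for G6pc, and without KO replicate 1 0.804 to 1.67 and 1.01 to 1.69. Ppargc1a, a coactivator of gluconeogenic and mitochondrial genes, allowed 0.441 to 1.32 times WT.

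Fgf21, a hormone of the fasted liver, had 15.6, 18.4, 23.2 and 96.3 CPM in KO and 8.69, 40.6, 39.9 and 36.2 CPM in WT. KO replicate 4 was the highest, the groups overlapped, and any KO level from 0.451 to 3.33 times WT remained possible. Pdk4, the kinase that keeps pyruvate out of the citric acid cycle, had 10.2, 18.7, 36.1 and 69.6 CPM in KO replicates 1 to 4 and 5.91, 15.3, 22.8 and 14.7 CPM in WT. KO replicates 3 and 4 were the highest. The log2 difference was 1.199 (SE 0.54, p = 0.049 and adjusted p = 1.0 by edgeR, exact permutation p = 0.229). Without those 2 mice it was 0.00, and without KO replicate 1 it was 1.49. In WT low-fat mice the mean levels, scaled over all mice, were 58.5 CPM fed and 33.5 CPM fasted for Fgf21. For Pdk4 they were 16.7 and 15.7 CPM, so neither mean was higher after fasting on this diet. The medians of Fgf21 were 30.1 CPM fed and 40.9 CPM fasted.

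Genes of fatty acid breakdown were then taken by their role. Of the other acyl-CoA dehydrogenases 7 were tested, with log2 differences from -0.30 to 0.25 and 0 at p below 0.05. Acadl, whose long-chain enzyme shares substrates with MCAD, had 254, 329, 236 and 322 CPM in KO and 271, 259, 248 and 183 CPM in WT. The groups overlapped, and the interval was 0.878 to 1.61 times WT. Acadvl, for very long chains, allowed 0.837 to 1.57 times WT, and Acads, for short chains, 0.707 to 1.73. Acad11 stood at 82.3 CPM in KO replicate 1 and at 346 to 634 CPM in the other 7 mice. In mitochondrial β-oxidation 0 of 18 genes passed p below 0.05, where 2.28% of all genes did. The median log2 difference of the 18 was 0.08 and 16 of 18 intervals lay within 2-fold. Without KO replicates 3 and 4 the median was 0.24 and 3 genes had p below 0.05 (Hadha, Decr1 and Acaa2), all higher in KO. In that fit 4.98% of all genes had such a p in either direction. It rests on KO replicates 1 and 2, both labelled with age 14 and lane 7, and replicate 1 stood apart from the other mice. Without KO replicate 1 the median was 0.08 and 0 of 19 genes had p below 0.05, where 2.83% of all genes did. With all mice kept, Hadha, of the trifunctional protein, was at 0.34 (SE 0.22) and Acaa2, the thiolase, at 0.36 (SE 0.22) on the log2 scale. In the carnitine shuttle 0 of 6 passed and the median was 0.24, or 0.12 without KO replicate 1. Its largest difference was that of Cpt2, which rebuilds acyl-CoA inside mitochondria (log2 0.41, SE 0.21). Of fatty acid uptake and activation 0 of 9 passed, with a median of 0.09. Over all genes tested the median was 0.00.

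Acyl-CoA thioesterases split acyl-CoA into a fatty acid and free CoA. Of 15 listed genes 9 were tested, with a median log2 difference of 0.25, and 1 passed p below 0.05, against 2.28% of all genes. Acot2, the mitochondrial long-chain thioesterase (chromosome 12, 83987861 to 83993873), had 320, 158, 42.5 and 93.7 CPM in KO replicates 1 to 4 and 70.5, 43.2, 128 and 30.8 CPM in WT. KO replicates 1 and 2, with the labelled age of 14, were the highest, and KO replicates 3 and 4 lay within the WT range. The log2 difference was 1.18 (SE 0.60, p = 0.0821 and adjusted p = 1.0 by edgeR, exact permutation p = 0.229). It was 0.55 (SE 0.66) without KO replicate 1 and 1.81 without KO replicates 3 and 4. Within lane 7 it was 1.62, within lane 8 0.25, and with age as a term 1.01. The part of age, lane and library in this value was not tested.

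Acot1, its cytosolic paralog, had 1169, 1096, 450 and 960 CPM in KO and 567, 549, 875 and 510 CPM in WT (log2 difference 0.56, SE 0.28). KO replicate 3 lay below all WT mice and the other KO mice above all WT mice. Acot3, a peroxisomal paralog and the gene that passed, had 55.3, 30.8, 40.5 and 42.2 CPM in KO and 13.9, 17.6, 31.7 and 32.4 CPM in WT. Of the KO mice, replicate 2 alone fell into the WT range (log2 difference 0.81, SE 0.30, exact permutation p = 0.0857, and unadjusted p = 0.0156 and adjusted p = 1.0 by edgeR, the last with a range of 0.841 to 1.0 over the alternatives). Acot4, Acot7, Acot8, Acot12, Acot13 and Them4 had log2 differences between -0.07 and 0.26. Acot5, Acot6, Acot9, Acot10, Acot11 and Them5 had 0 to 12 counts per mouse and were not tested. In the last 600 bases of the transcripts, 0% of the 50-base windows of Acot2 occurred in Acot1 transcripts, and 13.9% of those of Acot1 occurred in Acot2. For the thiolase gene Acaa1b, 40.8% of the windows occurred in its paralog Acaa1a, and 47.7% of those of Cyp4a32 in Cyp4a31, which leaves the split of reads within these pairs uncertain.

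**Figure D2:**
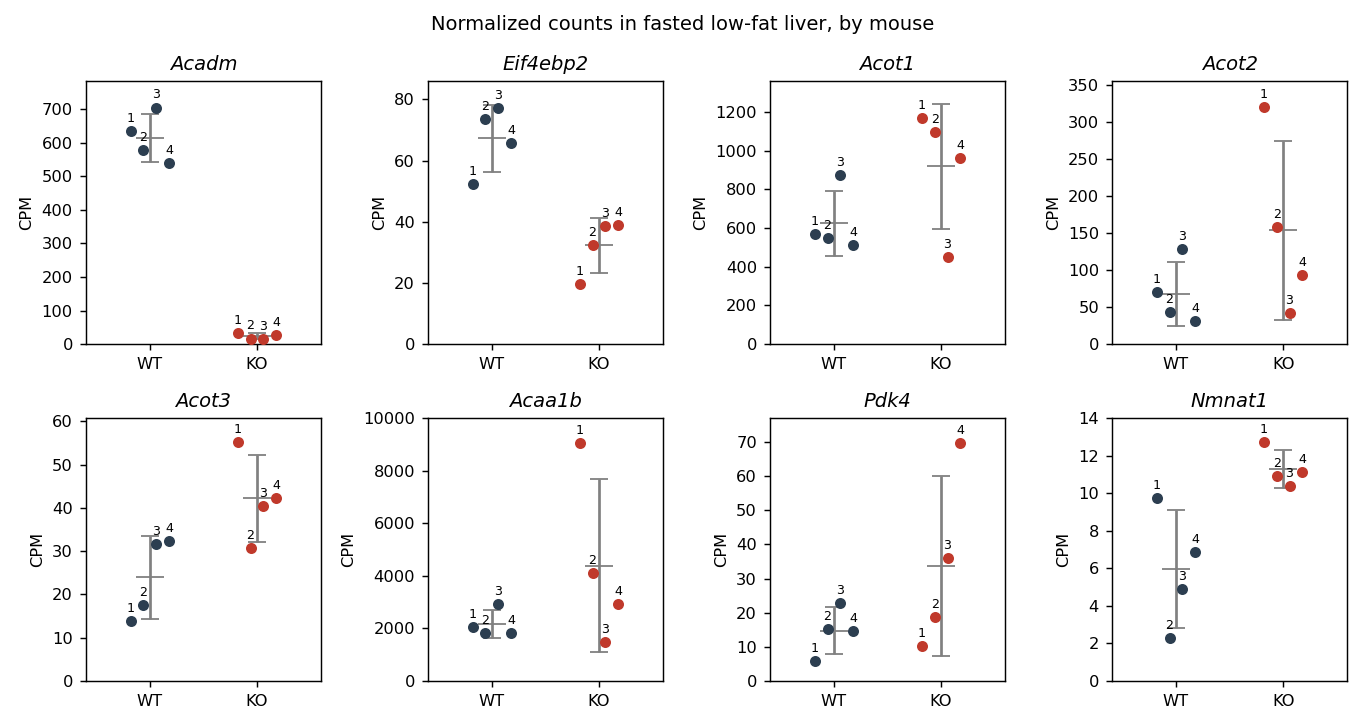
CPM of 8 genes in each mouse (points with replicate numbers, WT and KO), with the mean and SD of the 4 mice of a genotype in grey. Acadm, Eif4ebp2 and Nmnat1 show no overlap between genotypes, KO replicates 1 and 2 lie highest for Acot2 and Acaa1b, and KO replicates 3 and 4 lie highest for Pdk4.

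Acaa1b was the 1 of 17 genes of peroxisomal β-oxidation with p below 0.05, where 2.28% of all genes had such a p. It had 9054, 4104, 1482 and 2928 CPM in KO and 2039, 1839, 2932 and 1822 CPM in WT. KO replicates 1 and 2 were the highest and KO replicate 3 was below every WT mouse. The log2 difference of 1.03 (SE 0.44, p = 0.0397 and adjusted p = 1.0 by edgeR, exact permutation p = 0.257) became 0.39 (SE 0.29) without KO replicate 1. Acnat2, a peroxisomal acyltransferase, had 56.5, 30.6, 27.2 and 26.3 CPM in KO and 57.3, 45.1, 46 and 32.4 CPM in WT (log2 difference -0.36, SE 0.28). KO replicate 1 lay within the WT range and the other KO mice below it, and without KO replicate 1 the value was -0.68 (adjusted p = 1.0 by edgeR). In ω-oxidation 0 of 13 genes passed, with a median of 0.14, or 0.03 without KO replicate 1. Of medium-chain synthetases and glycine conjugation 0 of 7 passed. Glyat, which joins acyl groups to glycine for excretion, had the smallest p there (log2 0.36, SE 0.20).

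In ketone body synthesis and export 0 of 7 genes passed, where 2.28% of all genes did. Of the 7, 1 was higher in KO, where 50.6% of all genes were. Slc16a6, a transporter for ketone body export, had 30.3, 9.47, 17.8 and 13 CPM in KO and 29.2, 26, 23.6 and 24.4 CPM in WT (log2 difference -0.57, SE 0.33). KO replicate 1 was the highest of the 8 mice and the other 3 KO mice lay below all WT mice. Without KO replicate 1 the log2 difference was -0.98 (adjusted p = 1.0 by edgeR). In gluconeogenesis 0 of 16 passed and the median was -0.11, or 0.03 without KO replicate 1. Of the 32 PPARα and FoxO responders 24 were higher in KO, where 50.6% of all genes were, and the median was 0.26, or 0.13 without KO replicate 1. Pdk4 was the 1 gene of that list that passed, and Ppara itself was at 0.54 (SE 0.27), or 0.19 without KO replicate 1.

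Of the genes that fasting lowers, 0 of 19 in lipogenesis and 0 of 14 in cholesterol synthesis passed, with medians of 0.06 and -0.11. Of all genes tested, 2.28% passed. Scd1, the stearoyl-CoA desaturase, allowed 0.789 to 2.12 times WT. Srebf1, the regulator of lipogenesis, had 5, 91, 62 and 61 counts in KO and 60, 69, 86 and 127 counts in WT, with KO replicate 1 alone low, and allowed 0.329 to 1.44 times WT.

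**Figure D3:**
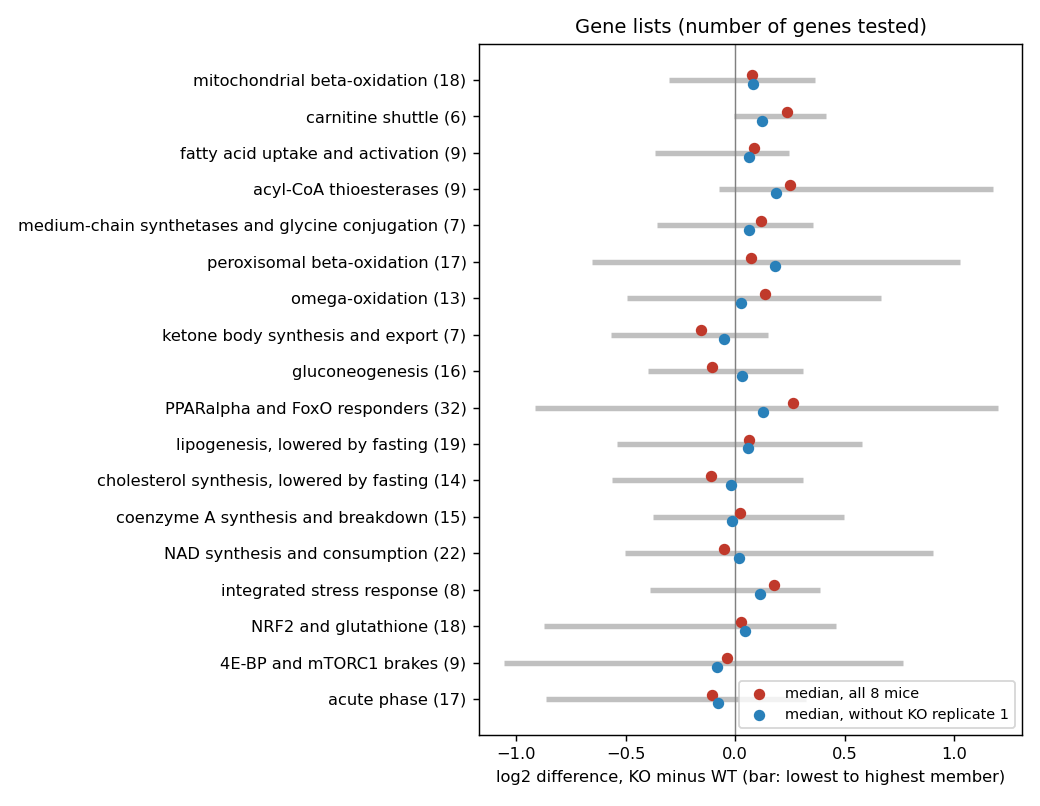
KO minus WT log2 difference of 18 gene lists. Bars run from the lowest to the highest tested member, red points mark the median over all 8 mice and blue points the median without KO replicate 1. The medians over all 8 mice lie between -0.16 and 0.26.

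Coenzyme A carries the acyl groups and NAD accepts electrons in β-oxidation. Of CoA synthesis and breakdown 0 of 15 genes passed p below 0.05, where 2.28% of all genes did, with a median log2 difference of 0.02. Of NAD synthesis and consumption 1 of 22 passed, Nmnat1, the nuclear enzyme of the last step of NAD synthesis. It had 12.7, 10.9, 10.4 and 11.1 CPM in KO and 9.73, 2.3, 4.88 and 6.87 CPM in WT, with all KO mice above all WT mice. The log2 difference was 0.90 (SE 0.41, p = 0.0417 and adjusted p = 1.0 by edgeR, exact permutation p = 0.0286), or 0.84 (p = 0.0686) without KO replicate 1. Gene lists that the study built from enzyme reactions were counted too. Of its CoA list 3 of 145 tested genes were higher and 3 lower at p below 0.05, and of its NAD(P)(H) list 5 of 252 were higher and 1 lower, against 1.17% of all genes higher and 1.11% lower. Without KO replicate 1, 3 of 146 and 5 of 254 were higher and 2 and 1 lower, where 2.83% of all genes passed in either direction. Without KO replicates 3 and 4, 16 and 18 genes passed in either direction, where 4.98% of all genes did. That fit rests on KO replicates 1 and 2, both labelled with age 14 and lane 7. In the CoA list the smallest p belonged to Cdyl, a chromodomain gene (log2 -1.01, SE 0.37), Acot3, the histone acetyltransferase gene Crebbp (0.52, SE 0.19) and the N-terminal acetyltransferase gene Naa40 (-1.36, SE 0.53). In the NAD(P)(H) list they belonged to Ndufab1 (0.68, SE 0.25) and Ndufv3 (0.50, SE 0.19) of respiratory complex I, the lipid droplet dehydrogenase gene Hsd17b11 (0.70, SE 0.26) and the mitochondrial aldehyde dehydrogenase gene Aldh1b1 (-0.60, SE 0.24).

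Of the integrated stress response 0 of 8 tested genes passed, and of the NRF2 and glutathione list 0 of 18, where 2.28% of all genes did. Gdf15, a stress hormone whose promoter window held the DR1 letters, had 0, 10, 12 and 47 counts in KO and 6, 7, 13 and 3 counts in WT and was too low to be tested in all 8 mice. In the 4E-BP and mTORC1 list Eif4ebp2 was the 1 of 9 that passed. Of 17 acute-phase genes 2 had p below 0.05, both lower in KO, where 1.11% of all genes did, and 0 of the list did without KO replicates 3 and 4. Saa2 had 12.3, 9.71, 13.8 and 6.29 CPM in KO and 26.4, 13.8, 13 and 19.4 CPM in WT (log2 difference -0.80, SE 0.34), and Saa3 had a log2 difference of -0.86 (SE 0.40). The groups overlapped for both genes. The acute-phase genes Fgb and Hp were at -0.17 (SE 0.20) and 0.14 (SE 0.21).

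The last question was whether the KO to WT difference departed from that in the fed state and on the high-fat diet. In a model of all 8 groups without KO high-fat fasted replicate 4, whose library held heart transcripts, 0 of 11631 genes (0.0%) passed an adjusted p below 0.05 for the departure from low-fat fed or from high-fat fasted mice by edgeR, and 0 did by DESeq2. The other 23 mice of this model also differed in transcripts of other tissues, with up to 232.4 CPM over heart, 1859 CPM over skeletal muscle and 19675 CPM over acinar pancreas genes, and up to 11.5 CPM of Cyp21a1 in a WT high-fat fasted mouse. Their part in the departures and in the choice of fasting-induced genes was not tested. At an unadjusted p below 0.05 there were 746 genes (6.41%) against fed and 405 genes (3.48%) against high-fat fasted mice. Rab5b was at -0.996 (SE 0.31) in low-fat fasted and at 0.99 (SE 0.25) in low-fat fed mice (adjusted p = 0.576 by edgeR). Eif4ebp2 was at -1.06 in low-fat fasted, 0.18 (SE 0.22) in fed and 0.01 (SE 0.18) in high-fat fasted mice. The departures had adjusted p = 0.644 and 1.0 by edgeR. Acta2 was at 1.69 here and -0.83 (SE 0.44) in fed mice (adjusted p = 0.644 by edgeR). Slc16a1, the monocarboxylate transporter MCT1, was at 0.15 (SE 0.23) here and -0.81 (SE 0.17) in fed mice (adjusted p = 0.671 by edgeR). Acot2 was at 1.18 here, -1.75 (SE 1.04) in fed and 0.25 (SE 0.72) in high-fat fasted mice (adjusted p = 0.693 against fed by edgeR). None of these departures passed the correction, and the leading genes among them were named for their values in the low-fat fasted mice, so their departure is not independent of that choice.

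**Figure D4:**
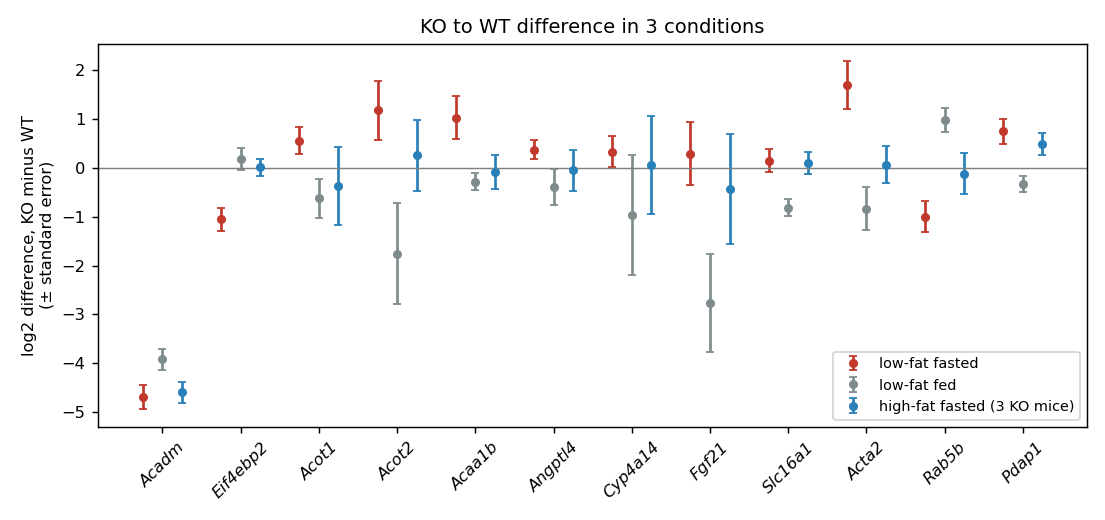
KO minus WT log2 difference (± standard error) of 12 genes in low-fat fasted, low-fat fed and high-fat fasted mice (3 KO mice in the last). Acadm is below 0 in all 3 conditions, and Eif4ebp2 and Rab5b are below 0 in low-fat fasted but not in low-fat fed mice.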

How the data were processed

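RNA from freeze-clamped liver was made into QuantSeq 3′ mRNA libraries. Per the labels, the authors mapped reads with HISAT 0.1.5 to GRCm38 (mm10) and counted them per gene with HTSeq 0.6.1p1. The deposited values are raw counts of 20076 genes, of which 19913 matched a symbol in the GENCODE annotation of this build. Groups, ages and lanes came from the labels.

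Counts of the 8 mice were scaled by TMM, filtered by filterByExpr and tested with the robust quasi-likelihood test of edgeR 4.0.16 in R 4.3.3, with Benjamini-Hochberg adjustment over all genes tested. Standard errors and 95% intervals came from the fit. Single genes were also compared by an exact permutation test (two-sided) on log2(CPM + 1). Alternatives were DESeq2 1.42.0, voom of limma 3.58.1, other filters, terms for lane, age and replicate number, and left-out mice. Scripts were tested on simulated data. Floors cover counting error only. The p-values of edgeR set a difference against the spread between the mice of the fit, with each gene's spread drawn towards that of all genes. The permutation p is the share of splits of the 8 mice with a difference at least as large.

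The members, gene lists and comparisons were chosen with earlier results of these data known. Genes named were Acadm, the 10 genes per direction with the smallest p, the 15 strongest fasting-induced genes, members of each list with the smallest p or highest CPM, acyl-CoA dehydrogenases, thioesterases, adrenal markers, genes the study names and textbook fasting genes. Others are said to be named after their values were seen, as are Crtc2, Sdhd, Numb, Adam9, Ucp1, Acaa1a, Gdf15 and Hp. A few listed genes are counted in their lists and are not reported here singly.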

Additional observations from a re-analysis of the deposited data

Results flagged for a closer look

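Of 210 groups of 4 mice examined for a mouse far from the other 3, 15 held such a mouse by Dixon's criterion, which chance meets in about 1 in 20 groups. In KO replicate 1, the number of genes more than 4 times below the median was 202 (4 in each of the other 3 KO mice), Numb stood at 0.819 CPM (32.3 to 33.6 in the others) and Acnat2 at 56.5 CPM (26.3 to 30.6). In KO replicate 2, the number of genes above 4 times the median was 0 (3 in each of the others), Acot4 stood at 40.3 CPM (31.6 to 32) and Cyp4a32 at 10.2 CPM (13.5 to 13.8). In KO replicate 3, which held adrenal transcripts, Cyp4a10 stood at 1353 CPM (3347 to 3634) and the adrenal regulator Nr5a1 at 3.46 CPM (0 in the others). Fgf21 stood at 96.3 CPM in KO replicate 4 (15.6 to 23.2 in the others) and at 8.69 CPM in WT replicate 1 (36.2 to 40.6). Decr1 stood at 212 CPM in WT replicate 1 (192 to 194 in the others). In WT replicate 3, Acot1 stood at 875 CPM (510 to 567) and Stk19 at 15.5 CPM (9.94 to 10.8). In WT replicate 4, Them5 and Ucp1 each stood at 1.89 CPM (0 in the others).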

How the results depend on the processing

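Acadm was the 1 adjusted call in every alternative run, alone except without a filter on low counts (4 calls, with Chga, Cidea and Kcnk3 higher) and within lane 8, which has 1 KO mouse, assumed to vary like the WT mice (14 calls). The direction of Acadm was the same throughout. Medians of lists changed sign for gluconeogenesis (-0.11 to 0.03), NAD (-0.05 to 0.02) and CoA genes (0.02 to -0.01) without KO replicate 1, and for the integrated stress response (0.18 to -0.22), lipogenesis (0.06 to -0.01) and textbook fasting genes (0.09 to -0.09) without KO replicates 3 and 4. The number of genes at p below 0.01, 18 in all 8 mice, was 44 by DESeq2, 104 without a filter, 97 without KO replicates 3 and 4, 200 within lane 8, 143 in the model of 8 groups, and 15 to 45 with each mouse left out (45 without KO replicate 1 or 3, 39 without KO replicate 2). At p below 0.05, 220 became 768 without a filter, 512 without KO replicates 3 and 4, 736 within lane 8, 641 in the model of 8 groups, and 168 to 379 with each mouse left out, the highest without KO replicate 2. For the departure from fed mice, 143 genes at p below 0.01 became 222 by DESeq2, 88 with all 32 mice, 324 without KO replicates 3 and 4, 242 without a filter and 119 to 252 with each mouse left out. At p below 0.05, 746 became 497, 1237 and 1233 with all 32 mice, without these KO replicates and without a filter, and 641 to 1033 with each mouse left out. For the departure from high-fat fasted mice, 67 genes at p below 0.01 became 169, 203 and 107 in that order, and 63 to 122, and 405 at p below 0.05 became 756, 782 and 739, and 381 to 580. Of the pathway lists, 7 members with p below 0.05 became 19 without a filter, 4 with at least 10 counts in every mouse, 21 without KO replicates 3 and 4, 15 within lane 7, 34 within lane 8 and 4 to 14 with each mouse left out, the highest without KO replicate 3. The median bound of the fasting-induced genes, 1.85-fold, was 1.75 without a filter, 1.96 without KO replicates 3 and 4, 2.26 within lane 7, 2.6 within lane 8, 2.02 in the model of 8 groups, 2.13 with 99% intervals, 2.09 for the set from WT and KO mice, 1.97 for Plin4, the 1 gene past a log2 rise of 2, and 1.74 to 2.0 with each mouse left out. The share within 2-fold, 63.2%, was 26.3% within lane 7, 21.1% within lane 8, 36.8% with 99% intervals, 100% for Plin4 alone, and 47.4 to 68.4% with each mouse left out. Of 184 genes examined singly, many chosen for a small p in these mice, 19 had an exact permutation p below 0.05, and 10 to 23 with each mouse left out. Over all genes, 1.04% had every KO mouse above every WT mouse and 1.07% the reverse. Causes were not tested.

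Same-numbered KO and WT mice did not deviate together (correlations of residuals -0.089 to 0.047). The labels name no pairing, and these values cannot exclude one. With the replicate block, adjusted calls stayed at 1, genes at p below 0.05 numbered 200 and the median bound was 1.88-fold.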

Other observations

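Of 53 ribosomal protein genes, a group looked at after the values were seen, 43 had higher fitted levels in KO, where 50.6% of all genes did, with a median log2 difference of 0.18, and 1 had an unadjusted p below 0.05, against 2.28% of all genes. Their summed level was 3300, 3335, 2887 and 2858 CPM in KO replicates 1 to 4 and 2683, 2636, 2757 and 2637 CPM in WT. All KO sums lay above all WT sums. No test was made of this group.

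Cidea and Kcnk3 were also highest in KO replicates 3 and 4. Cidea, a lipid droplet gene of brown fat, had 1, 1, 13 and 30 counts in KO and 0, 0, 1 and 0 in WT. Kcnk3, a potassium channel gene of brown fat and of adrenal cortex, had 1, 2, 34 and 32 counts in KO and 0, 0, 0 and 6 in WT. These 2 mice also held adrenal transcripts, and the source of the counts was not tested.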
